A study of Homo sapiens with 8 samples.

Results

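The genes described here are 32 genes of cholesterol and fatty acid synthesis, taken by symbol from the 58870 genes of a deposited RNA sequencing table. The cells were CFPAC-1, an established line from a human pancreatic ductal carcinoma. Of them 18 encode enzymes that make sterols, 7 encode regulators or carriers of sterols, and 7 encode enzymes that make, desaturate or elongate fatty acids. All 32 passed the filter on low counts. The cells carried an empty vector (4 libraries) or an ADRA2A transgene (4 libraries), which encodes the alpha-2A adrenergic receptor. Both groups were grown without treatment for 72 hours in IMDM medium with 10% serum and 1% penicillin-streptomycin. The labels name neither the promoter of the transgene nor whether the cells were a clone or a pool, and they do not say that the 4 libraries of a group came from separate cultures, so the p-values measure the spread between these libraries only.

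Cholesterol is built from acetyl-CoA through mevalonate, squalene and lanosterol, and fatty acids are built from the same acetyl-CoA by ACLY, ACACA and FASN. Most of these genes are driven by SREBP transcription factors, which SCAP carries from the endoplasmic reticulum to the Golgi for cleavage when membrane sterol is low, and which INSIG proteins hold back when it is high. SREBP2, from SREBF2, acts mainly on the sterol genes, and SREBP1, from SREBF1, mainly on the fatty acid genes.

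The 8 library totals lay between 14427040 and 17528910 counts, and the lowest count of any of the 32 genes in any library was 294. ADRA2A itself had 0 counts in all 4 empty-vector libraries and 112, 142, 154 and 172 counts in ADRA2A replicates 1 to 4 (edgeR adjusted p = 1.03e-11). The 6 ductal epithelial markers summed to between 11700 and 12300 CPM (counts per 1000000 counts of the scaled library) in the empty-vector libraries and between 11400 and 12500 CPM in the ADRA2A libraries. Within that sum KRT7, CDH1 and KRT18 were lower with ADRA2A. Their log2 fold changes were -0.43, -0.33 and -0.09 (edgeR adjusted p = 2.74e-09, 1.68e-07 and 0.0315). KRT19 and EPCAM were higher, at 0.20 and 0.11 (edgeR adjusted p = 7.64e-05 and 0.00705). KRT8 did not differ detectably (0.05, edgeR adjusted p = 0.24). The 4 fibroblast, 3 endothelial, 3 hepatocyte and 3 adipocyte markers were all under 3 CPM in every library, as were 3 of 4 immune markers. The exception was CD68, a lysosomal protein gene, at 91.6 ± 2.75 CPM with the empty vector and 114 ± 4.6 CPM with ADRA2A (SD, n = 4 each). The immune markers summed to 89.8 to 96.2 CPM with the empty vector and 110 to 121 CPM with ADRA2A, with CD3E at 0 throughout, and the endothelial markers to 0.82 to 1.49 and 2.15 to 2.85 CPM. The endothelial rise was in PECAM1, with means of 0.773 and 2.44 CPM. VWF went from 0.235 to 0.0323 CPM and CDH5 from 0.0145 to 0 CPM. The part of all these markers in the results was not tested.

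Promoter sequences of these genes were searched for short motifs. RefSeq promoters on GRCh38.p14 were given for 28 of the 32 genes, as 38 windows of 250 bases before a start site, and ACAT2, FDFT1, SQLE and FASN were the other genes. CCAAT, on either strand, was found in 15 of the 20 windows of sterol synthesis enzymes (75.0%), in 3 of 8 windows of the sterol regulators and carriers (37.5%) and in 5 of 10 of the fatty acid enzymes. Of the 15532 windows of genes tested, 33.0% held it. CACNCCAC, the core of the sterol response element bound by SREBP, was found on either strand in 6 of 38 windows (15.8%), against 4.87% of all 35116 windows and 4.85% of those of genes tested. GGGCGG, the GC box, was found in 34 of 38 windows (89.5%) against 62.3% for genes tested, and CACGTG, the E-box, in 4 of 38 (10.5%) against 8.09%. Each motif was searched on both strands and counted separately, and matches of different motifs may overlap. Windows of the same gene can also overlap and hold the same match. By gene, CCAAT was found in 19 of the 28 genes, the CACNCCAC core in 6, the GC box in 27 and the E-box in 3. A match is a description of the letters, not a bound site. The stretches before any annotated exon are printed for the gene that fell most (HMGCS1), a gene that fell less (IDI1), the fatty acid gene that rose (SCD) and a feedback gene that did not pass the test (INSIG1). Capitals mark CCAAT or its reverse complement, and the CACNCCAC core on either strand.
HMGCS1, chr5:43313513-43313662, minus strand: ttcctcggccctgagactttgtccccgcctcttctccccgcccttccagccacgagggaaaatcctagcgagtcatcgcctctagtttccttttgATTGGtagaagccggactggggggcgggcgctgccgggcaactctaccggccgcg
IDI1, chr10:1049120-1049369, minus strand: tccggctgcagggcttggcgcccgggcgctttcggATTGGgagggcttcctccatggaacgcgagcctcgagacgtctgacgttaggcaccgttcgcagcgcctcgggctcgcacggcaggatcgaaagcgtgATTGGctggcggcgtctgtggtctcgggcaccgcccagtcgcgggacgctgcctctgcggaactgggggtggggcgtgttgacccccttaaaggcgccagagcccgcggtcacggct
SCD, chr10:100346983-100347232, plus strand: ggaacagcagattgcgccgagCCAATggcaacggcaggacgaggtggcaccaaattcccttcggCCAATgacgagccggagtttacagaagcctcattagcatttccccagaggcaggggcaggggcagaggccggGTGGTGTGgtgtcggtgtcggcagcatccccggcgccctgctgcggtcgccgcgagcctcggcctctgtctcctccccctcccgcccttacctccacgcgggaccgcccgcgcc
INSIG1, chr7:155297628-155297775, plus strand: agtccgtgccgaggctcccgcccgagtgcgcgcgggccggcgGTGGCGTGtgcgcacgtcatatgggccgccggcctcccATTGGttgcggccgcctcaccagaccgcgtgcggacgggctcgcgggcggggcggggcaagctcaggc
The printed stretches of HMGCS1 and INSIG1 held 1 CCAAT match each, and those of IDI1 and SCD held 2 each. The CACNCCAC core was present in the stretches of SCD and INSIG1, 114 and 208 bases before the RefSeq start site. IDI1 has a core too, 115 bases before another of its RefSeq start sites, outside the stretch printed. Genes that were lower, higher and not called thus all had windows with these letters. By outcome, the core was found in 2 of 22 windows of genes called lower, in 2 of 5 of genes called higher and in 2 of 11 of genes not called.

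Most sterol synthesis enzymes were expressed at a lower level in the ADRA2A cells. With edgeR's quasi-likelihood test, 11 of the 18 enzymes were lower and 2 were higher, and 5 were not called. A call here is a Benjamini-Hochberg adjusted p-value under 0.05, with the adjustment made over all 14785 genes that passed the filter. Of all 14785 genes tested, 42.7% were called, 21.1% lower and 21.6% higher. Among the 7815 genes at or above 21.9 CPM, the mean level of the least abundant of the 32 genes, 53.3% were called, 27.2% lower and 26.0% higher. The median log2 fold change of the 18 enzymes was -0.18, where that of all genes tested was 0.00. Every change was small: the enzymes lay between -0.49 and 0.40 on the log2 scale, and 0 of the 32 genes reached an absolute log2 fold change of 0.5 with an adjusted p-value under 0.05, which 12.0% of all genes tested did. In bulk RNA, fewer cells of a state and less RNA per cell cannot be told apart.

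**Figure D1:**
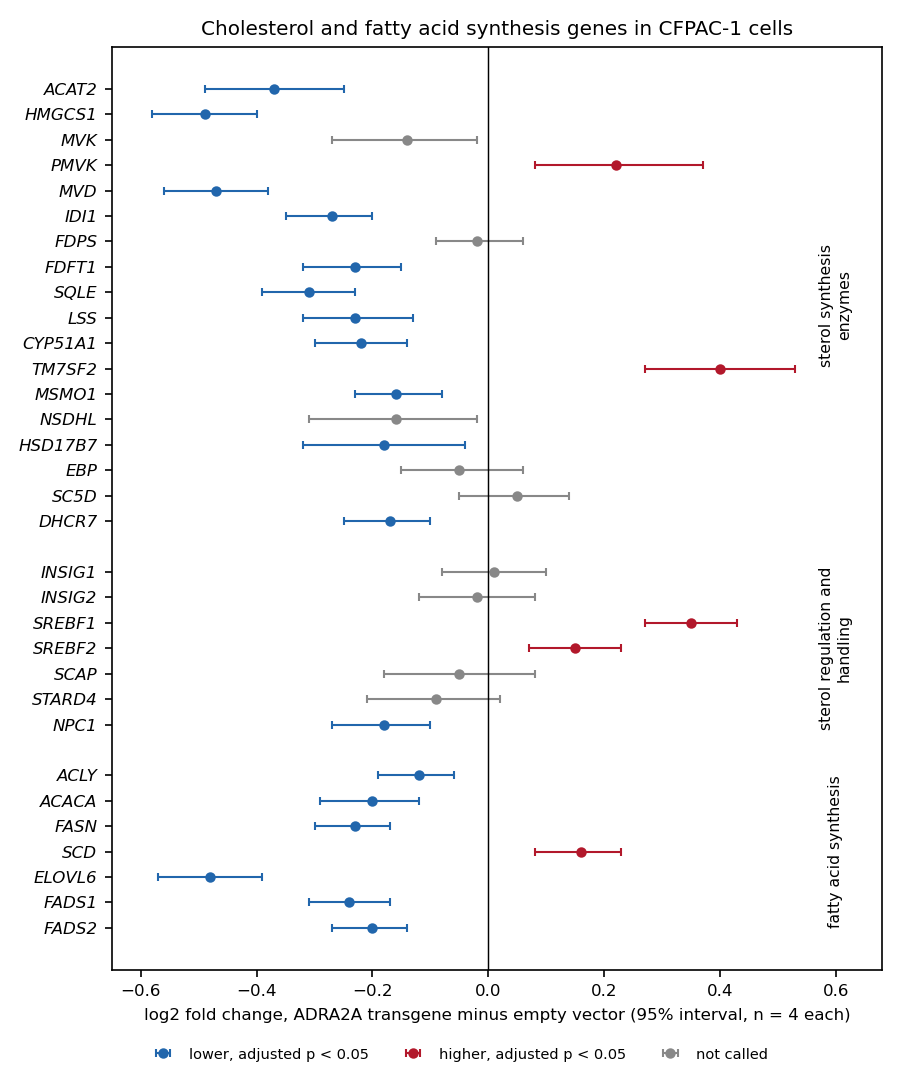
Log2 fold change (ADRA2A transgene minus empty vector, x axis) of each of the 32 genes in pathway order (y axis), with 95% intervals from the edgeR fit, n = 4 libraries per group. The points run from -0.49 for HMGCS1 to 0.40 for TM7SF2, with most sterol and fatty acid enzymes left of 0 and SREBF1, SREBF2, TM7SF2, PMVK and SCD to the right.

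The steps from acetyl-CoA to farnesyl diphosphate held the largest decreases. Of 7 genes 4 were called lower (57.1%) and 1 higher (14.3%), beside 21.1% and 21.6% of all genes tested. HMGCS1 (ENSG00000112972.15; GRCh38 chromosome 5, 43287470 to 43313512, minus strand, 11 exons) encodes the cytosolic synthase that makes HMG-CoA, the precursor of mevalonate. Its level was 341, 384, 339 and 375 CPM in empty-vector replicates 1 to 4 and 246, 250, 271 and 253 CPM in ADRA2A replicates 1 to 4. The ADRA2A libraries all lay below the lowest empty-vector library, and HMGCS1 fell by 29.0% (log2 fold change -0.49 ± 0.04, SE; edgeR adjusted p = 1.95e-08). ACAT2 makes the acetoacetyl-CoA that HMGCS1 uses. It stood at 87.4, 98.9, 93.3 and 83.8 CPM with the empty vector and at 69.0, 69.2, 77.5 and 64.8 CPM with ADRA2A. The groups did not overlap for ACAT2 (log2 fold change -0.37 ± 0.06, SE; edgeR adjusted p = 2.94e-05). Exons of ACAT2 overlap those of TCP1 on the opposite strand, and TCP1 had a log2 fold change of -0.19 (edgeR adjusted p = 0.000645). Whether counting used strand is not given in the sources used here, so the division of reads between them cannot be checked.

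MVD (ENSG00000167508.12; chromosome 16, 88651935 to 88663161, minus strand, 10 exons) encodes the decarboxylase that forms isopentenyl diphosphate. MVD was measured at 77.7, 74.4, 75.3 and 76.3 CPM in the empty-vector libraries and at 53.8, 56.4, 53.8 and 55.2 CPM in the ADRA2A libraries. Both groups were tight and far apart, and MVD fell by 27.8% (log2 fold change -0.47 ± 0.04, SE; edgeR adjusted p = 3.16e-08). IDI1, the isomerase that follows, went from 268 ± 11.4 to 222 ± 2.75 CPM (SD, n = 4 each), with no overlap between the groups (log2 fold change -0.27 ± 0.04, SE; edgeR adjusted p = 4e-06).

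The kinases between HMGCS1 and MVD differed in sign. PMVK, phosphomevalonate kinase, rose from 29.1 ± 2.83 to 34.0 ± 2.18 CPM (SD, n = 4 each; log2 fold change 0.22 ± 0.07, SE; edgeR adjusted p = 0.0153). Its libraries overlapped between the groups, and without empty-vector replicate 1, empty-vector replicate 2 or ADRA2A replicate 3 it was not called (adjusted p between 0.00288 and 0.0615 over all alternatives). MVK, mevalonate kinase, was at 41.1 ± 2.32 and 37.3 ± 2.32 CPM and was not called (log2 fold change -0.14, 95% interval -0.27 to -0.02 before adjustment, adjusted p = 0.0603). MVK shares exon sequence with MMAB on the opposite strand, also not called (log2 fold change 0.11, adjusted p = 0.119). FDPS, which makes farnesyl diphosphate, stood at 289 ± 10.7 and 286 ± 12.4 CPM (SD, n = 4 each). No difference in FDPS was detectable, and its 95% interval of -0.09 to 0.06 on the log2 scale does not reach the decrease of MVD or HMGCS1.

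All 3 genes that commit farnesyl diphosphate to sterols were lower, as were 21.1% of all genes tested. FDFT1, squalene synthase, was at 238, 263, 259 and 259 CPM with the empty vector and at 209, 218, 227 and 211 CPM with ADRA2A (log2 fold change -0.23 ± 0.04, SE; edgeR adjusted p = 7.46e-05). SQLE, squalene epoxidase and a rate-limiting enzyme of the pathway, was at 159, 171, 166 and 164 CPM and at 130, 134, 139 and 127 CPM. SQLE fell by 19.5% (log2 fold change -0.31 ± 0.04, SE; edgeR adjusted p = 2.23e-06). LSS, which closes the ring to form lanosterol, was at 145, 133, 130 and 131 CPM and at 116, 110, 113 and 122 CPM, and it too was lower (log2 fold change -0.23, edgeR adjusted p = 0.00035). In each of the 3 genes every ADRA2A library lay below every empty-vector library, as in 19.5% of all genes tested.

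Between lanosterol and cholesterol, 4 of 8 genes were lower and 1 was higher. Of all genes tested, 21.1% were called lower and 21.6% higher, and of those at or above 21.9 CPM 27.2% and 26.0%. CYP51A1, which removes the methyl group at carbon 14 of lanosterol, went from 277 ± 5.41 to 238 ± 13.4 CPM (SD, n = 4 each; log2 fold change -0.22, edgeR adjusted p = 0.000137). MSMO1, which oxidizes the methyl groups at carbon 4, went from 290 ± 8.06 to 260 ± 11.1 CPM (log2 fold change -0.16, edgeR adjusted p = 0.00177). DHCR7, the last reductase of the Kandutsch-Russell route, went from 208 ± 4.45 to 185 ± 5.71 CPM (log2 fold change -0.17, edgeR adjusted p = 0.000643). These 3 genes had no overlap between the groups, as held with ADRA2A lower for 19.5% of all genes tested. CYP51A1 shares exon sequence with AKAP9 on the opposite strand, which was not called (log2 fold change 0.12, adjusted p = 0.224).

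HSD17B7, a ketosteroid reductase, was the least abundant of the 32 genes, at 23.3 ± 0.729 and 20.5 ± 0.694 CPM (SD, n = 4 each; log2 fold change -0.18, edgeR adjusted p = 0.0336). Its call was lost with DESeq2, without the filter, and without any of 5 single libraries (empty-vector replicates 2 and 4, ADRA2A replicates 1, 2 and 4), over an adjusted p range of 0.0217 to 0.0823. Its 2 named pseudogenes summed to 2.88 CPM, so the split of reads among them is uncertain. NSDHL, EBP and SC5D, a dehydrogenase, an isomerase and a desaturase of the late steps, were not called. Their log2 fold changes were -0.16 (95% interval -0.31 to -0.02 before adjustment, adjusted p = 0.0653), -0.05 (-0.15 to 0.06) and 0.05 (-0.05 to 0.14).

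TM7SF2 went the other way. TM7SF2 (ENSG00000149809.14; chromosome 11, 65111845 to 65116384, plus strand, 10 exons) encodes the reductase of the double bond at carbon 14, the step after CYP51A1. It was at 25.9, 27.0, 26.6 and 23.4 CPM in empty-vector replicates 1 to 4 and at 35.6, 33.3, 33.2 and 33.5 CPM in ADRA2A replicates 1 to 4. All ADRA2A libraries were above all empty-vector libraries, and TM7SF2 rose by 31.7% (log2 fold change 0.40 ± 0.06, SE; edgeR adjusted p = 2.99e-05). LBR, the lamin B receptor, carries the same reductase activity and was the more abundant gene, at 338 ± 8.49 CPM with the empty vector and 295 ± 12.3 CPM with ADRA2A (SD, n = 4 each). LBR was lower (log2 fold change -0.19 ± 0.04, SE; edgeR adjusted p = 0.000191), so the pair that share this step moved in opposite directions. Exons of TM7SF2 overlap those of VPS51 on the same strand, and VPS51 was not called (log2 fold change -0.05, adjusted p = 0.515).

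**Figure D2:**
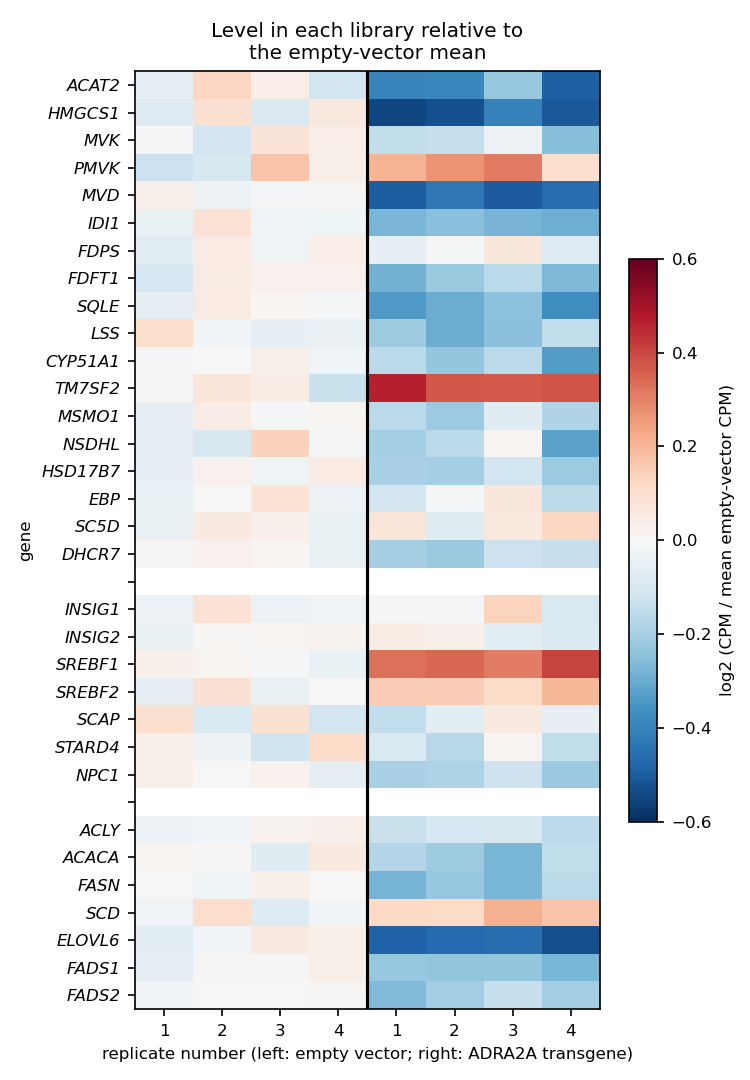
Level of each of the 32 genes (rows) in each of the 8 libraries (columns, empty vector left of the line, ADRA2A transgene right), as log2 of CPM over the gene's empty-vector mean. HMGCS1, MVD and ELOVL6 are dark blue in all 4 ADRA2A libraries, and TM7SF2 and SREBF1 are red in all 4.

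Among the regulators, the genes of both SREBP factors were higher while most of their enzyme targets on the list were lower. SREBF1 (ENSG00000072310.16; chromosome 17, 17810399 to 17837002, minus strand, 19 exons) was at 113, 112, 109 and 107 CPM with the empty vector and at 139, 140, 137 and 146 CPM with ADRA2A. It rose by 27.3% with no overlap (log2 fold change 0.35 ± 0.04, SE; edgeR adjusted p = 4e-07). Gene counts do not separate its SREBP1a and SREBP1c transcripts, or the uncleaved from the active protein. Exons of SREBF1 overlap those of RAI1 on the opposite strand, which rose by 0.21 on the log2 scale (edgeR adjusted p = 0.00132). SREBF2 (ENSG00000198911.12; chromosome 22, 41833105 to 41907306, plus strand, 19 exons) was at 241, 266, 242 and 250 CPM and at 276, 277, 269 and 287 CPM. The change in SREBF2 was smaller but again without overlap (log2 fold change 0.15 ± 0.04, SE; edgeR adjusted p = 0.00268).

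The genes that hold SREBP back or escort it were not called. INSIG1, itself a sterol-responsive SREBP target, was at 204, 221, 204 and 206 CPM with the empty vector and at 207, 208, 229 and 196 CPM with ADRA2A. The libraries were interleaved, and the 95% interval of its log2 fold change, -0.08 to 0.10, does not reach the decrease of HMGCS1. INSIG2 had 58.4 ± 1.16 and 57.7 ± 2.71 CPM, and SCAP had 47.3 ± 3.66 and 45.7 ± 2.65 CPM (SD, n = 4 each), with log2 fold changes of -0.02 (95% interval -0.12 to 0.08) and -0.05 (-0.18 to 0.08). STARD4, a carrier of sterol between membranes, was at 71.9 ± 4.90 and 67.3 ± 3.90 CPM (log2 fold change -0.09, 95% interval -0.21 to 0.02, adjusted p = 0.175). NPC1, which exports cholesterol from lysosomes, was at 103, 101, 103 and 97.3 CPM and at 88.6, 89.0, 92.9 and 86.7 CPM. NPC1 was lower without overlap (log2 fold change -0.18 ± 0.04, SE; edgeR adjusted p = 0.00127). Exons of NPC1 overlap those of RMC1 on the opposite strand, which was not called (log2 fold change -0.10, adjusted p = 0.38). Of the 7 regulators and carriers, 2 were thus higher, 1 lower and 4 not called, the median log2 fold change being -0.02. The 3 calls are 42.9% of the 7, beside 42.7% of all genes tested and 53.3% of those at or above 21.9 CPM.

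Every gene of the fatty acid group was called, 6 lower and 1 higher, the median log2 fold change being -0.20. The shares called lower and higher among all genes tested were 21.1% and 21.6%, and among those at or above 21.9 CPM 27.2% and 26.0%. For all 7, no empty-vector library lay within the range of the ADRA2A libraries. That held for 39.2% of all genes tested, 19.5% with ADRA2A lower and 19.7% with it higher. ACLY, which releases acetyl-CoA from citrate in the cytosol, had the smallest decrease, from 466 ± 10.2 to 428 ± 8.47 CPM (SD, n = 4 each; log2 fold change -0.12 ± 0.03, SE; edgeR adjusted p = 0.0035). ACACA, the carboxylase that makes malonyl-CoA, was at 125, 125, 118 and 129 CPM with the empty vector and at 110, 107, 103 and 112 CPM with ADRA2A (log2 fold change -0.20, edgeR adjusted p = 0.000537). FASN, fatty acid synthase, was at 588, 580, 601 and 589 CPM and at 486, 504, 487 and 527 CPM. FASN was lower without overlap (log2 fold change -0.23 ± 0.03, SE; edgeR adjusted p = 8.22e-06).

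The genes that modify the finished chain differed in direction. ELOVL6 (ENSG00000170522.9; chromosome 4, 110045846 to 110199199, minus strand, 4 exons) elongates palmitate to stearate. Its libraries were at 110, 114, 120 and 118 CPM with the empty vector and at 82.8, 83.8, 84.8 and 80.3 CPM with ADRA2A. ELOVL6 fell by 28.4%, close in size to HMGCS1 and MVD (log2 fold change -0.48 ± 0.04, SE; edgeR adjusted p = 1.36e-08). SCD (ENSG00000099194.6; chromosome 10, 100347233 to 100364826, plus strand, 6 exons) places the first double bond in stearate and palmitate. SCD was at 1628, 1776, 1566 and 1629 CPM and at 1793, 1792, 1910 and 1859 CPM. The lowest ADRA2A library was just above the highest empty-vector library, and SCD rose by 11.5% (log2 fold change 0.16 ± 0.04, SE; edgeR adjusted p = 0.00129).

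FADS1 and FADS2 encode the desaturases that make long polyunsaturated fatty acids. On chromosome 11, FADS1 (61799627 to 61829318, minus strand) lies within the annotated span of FADS2 (61792980 to 61867354, plus strand). FADS1 was at 356, 371, 371 and 378 CPM with the empty vector and at 316, 313, 315 and 305 CPM with ADRA2A (log2 fold change -0.24 ± 0.03, SE; edgeR adjusted p = 4.9e-06). FADS2 was at 525, 532, 531 and 534 CPM and at 441, 459, 482 and 460 CPM (log2 fold change -0.20 ± 0.03, SE; edgeR adjusted p = 3.31e-05). Both were lower in every ADRA2A library. Whether exons of FADS1 and FADS2 overlap each other was not examined. The use of strand in counting is not given, so the division of reads between them cannot be checked. Exons of FADS2 overlap those of FEN1, a replication nuclease gene on the same strand that was also lower (log2 fold change -0.22, edgeR adjusted p = 0.00117). Per kilobase of canonical transcript, SCD had the highest level of the 32 genes in the empty-vector cells at 314.5 CPM per kilobase, followed by FDPS at 203.9 and FADS2 at 171.7. The lowest were SCAP at 11.1 and ACACA at 12.4 CPM per kilobase.

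**Figure D3:**
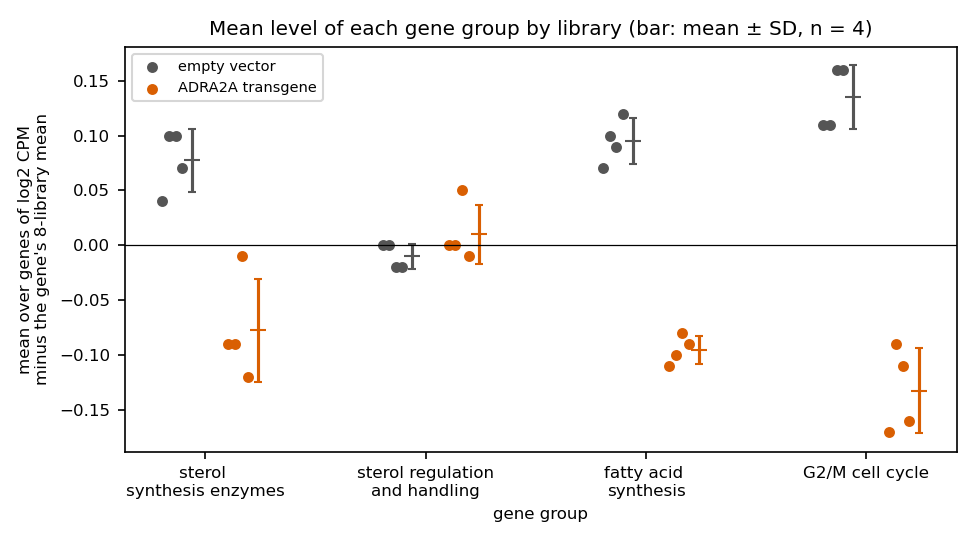
Mean over the genes of each group of log2 CPM minus the gene's mean over all 8 libraries (y axis), per library (points) with mean ± SD (n = 4), for the 3 groups of the 32 genes and for G2/M cell cycle genes (x axis). Sterol enzymes, fatty acid enzymes and G2/M genes each separate the 4 ADRA2A libraries from the 4 empty-vector libraries, and the sterol regulators and carriers do not.

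The mean levels by library show how evenly each group moved. Over the 18 sterol enzymes the mean centred log2 CPM was 0.04, 0.10, 0.10 and 0.07 in empty-vector replicates 1 to 4 and -0.09, -0.09, -0.01 and -0.12 in ADRA2A replicates 1 to 4. ADRA2A replicate 3 was nearest to the empty-vector libraries in this group. Fatty acid genes varied less, at 0.07, 0.10, 0.09 and 0.12 with the empty vector and at -0.11, -0.10, -0.08 and -0.09 with ADRA2A. Of a list of 22 G2/M cell cycle genes, 20 were lower and 0 higher, the median log2 fold change being -0.26. Their mean level was 0.14 ± 0.03 with the empty vector and -0.13 ± 0.04 with ADRA2A (log2, SD, n = 4 each). In ADRA2A replicates 1 to 4 it was -0.17, -0.09, -0.11 and -0.16, an order unlike that of the sterol enzymes. The 20 lower genes were 90.9% of that list, where 21.1% of all genes tested were lower. AURKA and TPX2, a mitotic kinase and its activator, fell by 0.43 and 0.37 on the log2 scale (edgeR adjusted p = 7.97e-08 and 5.69e-08). The part of the cell cycle genes in the lipid gene changes was not tested.

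To show the levels of the surrounding genes, each gene was set beside the nearest 20 tested genes on either side. The median log2 fold change of the neighbours lay between -0.26 and 0.13 over the 32 genes, with a median of -0.02. Around NPC1 on chromosome 18 the neighbours had a median of -0.26, with 38 of 40 below 0, so that NPC1 at -0.18 was no lower than its surroundings. SQLE on chromosome 8 and MVD on chromosome 16 each had neighbours at a median of -0.12, and IDI1 on chromosome 10 had neighbours at -0.10. The neighbours of EBP, ACLY and MVK had medians above 0, at 0.13, 0.11 and 0.10, while these genes were at -0.05, -0.12 and -0.14. In the other 25 genes the median was under 0.1 in size. HMGCS1, ELOVL6, TM7SF2 and SREBF1 differed most from their neighbours, whose medians were 0.02, -0.04, -0.04 and -0.03. Whether neighbouring genes moved together was not tested.

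**Figure D4:**
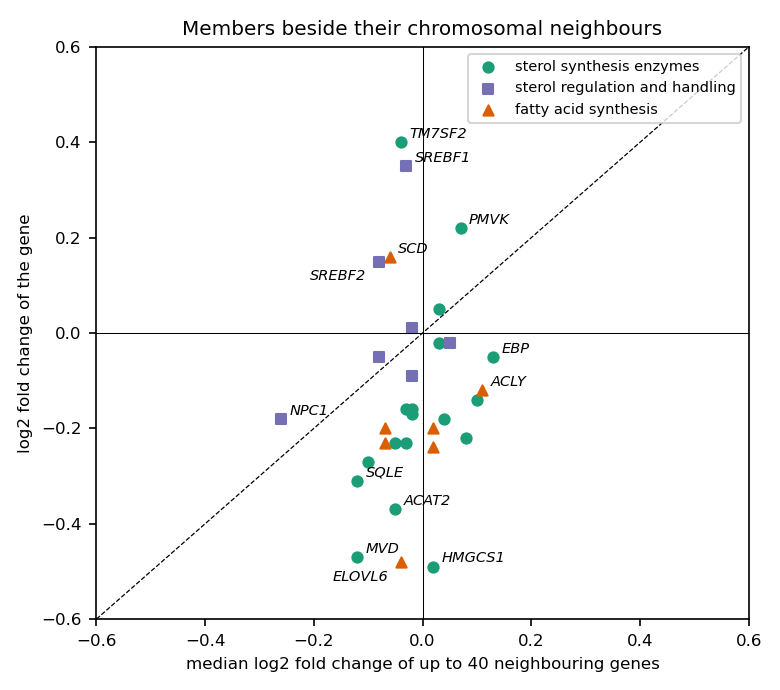
Log2 fold change of each of the 32 genes (y axis) against the median log2 fold change of up to 40 neighbouring tested genes (x axis), with the dashed line marking equal values. NPC1 is the point with the lowest neighbour median (-0.26), while HMGCS1, ELOVL6, TM7SF2 and SREBF1 lie far above or below neighbours near 0.

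Other genes of sterol metabolism were called in both directions. Of 18 further sterol pathway genes, 8 were higher and 3 lower, the median log2 fold change being 0.08. Those called made up 61.1%, beside 42.7% of all genes tested and 53.3% of those at or above 21.9 CPM. MBTPS2, the site-2 protease that releases active SREBP, was at 59.0, 63.0, 58.8 and 63.2 CPM with the empty vector and at 75.4, 74.3, 76.6 and 74.0 CPM with ADRA2A. It rose without overlap (log2 fold change 0.30 ± 0.04, SE; edgeR adjusted p = 1.61e-05). STARD3, an endosomal sterol carrier, rose from 92.9 ± 3.05 to 110 ± 3.12 CPM (SD, n = 4 each; log2 fold change 0.24, edgeR adjusted p = 7.64e-05). ACAT1, the mitochondrial thiolase, went from 28.9 ± 2.14 to 21.1 ± 0.951 CPM (log2 fold change -0.45, edgeR adjusted p = 2.61e-05).

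Of 10 LXR targets and cholesterol export genes, 8 were tested, of which 1 was higher and 1 lower. The share called was below the 42.7% of all genes tested and the 53.3% of those at or above 21.9 CPM. ABCA1, the cholesterol efflux pump and a target of the sterol sensor LXR, was at 33.3, 31.1, 37.0 and 34.9 CPM and at 18.4, 22.1, 17.0 and 19.2 CPM. With a decrease of 43.8% (log2 fold change -0.83 ± 0.08, SE; edgeR adjusted p = 5.08e-08), ABCA1 changed more than any of the 32 synthesis genes, on fitted values. CYP27A1, a mitochondrial sterol hydroxylase, rose from 3.44 ± 0.515 to 7.01 ± 1.58 CPM (SD, n = 4 each; log2 fold change 1.01 ± 0.18, SE; edgeR adjusted p = 0.000116).

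Fatty acid genes outside the synthesis core were divided. Of 27 further fatty acid and lipid synthesis genes 26 were tested, 7 higher and 8 lower, the median log2 fold change being -0.01. The share called was 57.7%, near the 53.3% of genes at or above 21.9 CPM, and 42.7% for all genes tested. DGAT2, which completes triglyceride synthesis, rose from 11.2 ± 0.603 to 18.3 ± 0.773 CPM (SD, n = 4 each; log2 fold change 0.71 ± 0.08, SE; edgeR adjusted p = 7.26e-07). ACSL3, a fatty acyl-CoA ligase, rose from 296 ± 10.1 to 357 ± 7.48 CPM (log2 fold change 0.27, edgeR adjusted p = 2.33e-06). ME1, the malic enzyme that supplies NADPH for lipid synthesis, went from 19.9 ± 0.336 to 11.5 ± 1.14 CPM (log2 fold change -0.79 ± 0.08, SE; edgeR adjusted p = 2.7e-07). LPIN1, a phosphatidate phosphatase, fell by 0.36 on the log2 scale (edgeR adjusted p = 7.33e-07).

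Of 17 fatty acid oxidation genes 6 were higher and 5 lower, the median log2 fold change being 0.03. The share called was 64.7%, beside 42.7% of all genes tested and 53.3% of those at or above 21.9 CPM. CPT1A, the gate for entry of fatty acids into mitochondria, rose from 146 ± 2.53 to 176 ± 4.98 CPM (SD, n = 4 each; log2 fold change 0.27, edgeR adjusted p = 4.7e-06). ACADS, the short-chain dehydrogenase, rose by 0.55 on the log2 scale (edgeR adjusted p = 3.35e-06). ACADVL and ACAA2, of the first and last steps of the cycle, fell by 0.19 and 0.23 on the log2 scale (edgeR adjusted p = 0.000562 and 0.0014). Differences in counts between these lists were not tested.

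**Figure D5:**
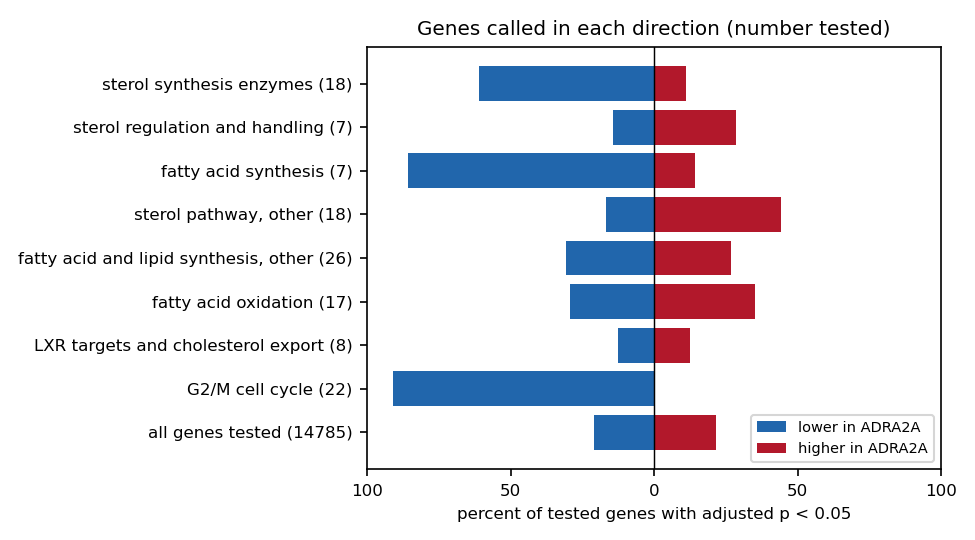
Percent of tested genes with an edgeR adjusted p-value under 0.05 that were lower (bars to the left) or higher (bars to the right) in the ADRA2A cells, for each gene list (number tested in brackets) and for all 14785 genes. The sterol enzymes (61.1%), the fatty acid enzymes (85.7%) and the G2/M genes (90.9%) have the longest bars to the left, beside 21.1% of all genes tested.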

How the data were processed

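RNA sequencing was done on 8 CFPAC-1 samples. The authors deposited RSEM estimated counts per gene, not scaled between samples. The tools cutadapt, STAR, RSEM and DESeq2 and the build hg38 are named per the submitters' processing notes, without versions. All 8 columns were matched to samples by title. Estimated counts were rounded to whole numbers, filtered with filterByExpr and scaled by TMM (factors 0.9938 to 1.006) in edgeR 4.0.16. The quasi-likelihood test used group as the single term, with Benjamini-Hochberg adjustment over 14785 genes. It was run on simulated data with few changed genes and the same dispersion for every gene. That setting differs from these data, so it gives no error rate for them. SE is the absolute log2 fold change over the square root of F. CPM are TMM-scaled. Positions, overlaps and canonical lengths are from GENCODE 44 on GRCh38 (58517 of 58870 identifiers matched). Promoters are from RefSeq. Library pairs within a group differed beyond counting noise (chi-square per gene 2.12 to 4.59). Named were the 32 genes, ADRA2A and, in each other list, the 2 genes with the smallest p among those called in each direction. The cell type markers named, the overlapping genes and the promoters printed were chosen after their values were seen. The 32 genes and all lists were chosen with earlier results of these data known. Alternatives were DESeq2 1.42.0, RLE and upper quartile factors, limma 3.58.1 voom, other filters, a replicate block, leaving out each library, and a minimum fold change.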

Additional observations from a re-analysis of the deposited data

Results flagged for a closer look

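Of 64 groups of 4 libraries examined (32 genes in 2 groups), 4 held a library that stood apart from the other 3 by Dixon's criterion, where chance gives about 1 in 20. IDI1 in empty-vector replicate 2 was the highest of its group at 285 CPM. INSIG1 in the same library was the highest of its group at 221 CPM. FDFT1 in empty-vector replicate 1 was the lowest of its group at 238 CPM. TM7SF2 in ADRA2A replicate 1 was the highest of its group at 35.6 CPM.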

How the results depend on the processing

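Of the 32 genes, 28 kept their direction where called and their side of the threshold under all 15 alternative fits, 21 of the 23 called genes among them. The exceptions were MVK, PMVK, NSDHL and HSD17B7. MVK gained a call with upper quartile factors and without empty-vector replicate 2 or ADRA2A replicate 3. NSDHL gained one in the same 3 fits, with no filter and with the replicate block. None of the 23 called genes changed direction. The sterol enzymes called lower numbered 11, with 10 under DESeq2 and 13 under upper quartile factors, and 10 to 13 when single libraries were left out. The count of 13 was without ADRA2A replicate 3. Those called higher numbered 2, and 1 to 2 in the same fits. The fatty acid calls were 6 lower and 1 higher in every alternative fit without a minimum fold change, and the regulator calls 1 lower and 2 higher. A log2 change of 0.5 or more in size was also required, in the main fit only. There 0 sterol enzymes, 0 regulators or carriers and 0 fatty acid genes were called in either direction, while 1005 of all genes tested were higher and 767 lower. HMGCS1 and ELOVL6 were close to this limit, at -0.49 and -0.48, and reached -0.52 and -0.51 in alternative fits. The count of 0 thus depends on the fit. Upper quartile factors shifted the median of all genes by -0.016. Same-numbered libraries correlated between -0.042 and 0.07 in their deviations from the group means, and 2 of 8 libraries correlated best with their own number. With the replicate block, 6400 genes were called in place of 6314, and 12 sterol enzymes were lower and 2 higher. Of all genes tested, 2916 to 3061 were higher and 2787 to 2981 lower when single libraries were left out. The highest level of the 4 genes whose calls changed was 44.2 CPM, in NSDHL.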
